A study of Mus musculus with 12 samples.

Results

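Lymphoid priming genes are genes of lymphocytes and of their early progenitors whose transcripts can already be present in blood stem cells before any commitment to the lymphoid fate. The set described here was chosen by symbol and holds 9 genes: Cd27, Ikzf1, Cd37, Notch1, Satb1, Ighm, Dntt, Il7r and Rag1. The expression table holds 8 of them among 18546 genes, and Rag1 was not analysed here. RNA was measured in SLAM hematopoietic stem cells (HSC), sorted as CD150+CD48-Lin-Sca1+cKit+ from the bone marrow of C57BL/6 mice 10 to 12 weeks old. The compound mutants carried NrasG12D/+ and Tet2+/- together, the Nras mutants carried NrasG12D/+ alone, the Tet2 mutants carried Tet2+/- alone, and wild-type mice carried neither allele, with 3 libraries of each genotype. The labels do not say whether a library is 1 mouse or a pool, nor in which cells the mutant alleles were switched on, so p-values measure the spread between these libraries only.

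In lymphoid development, Ikaros (Ikzf1), Satb1 and Notch1 act on gene expression early, the surface receptors Cd27 and Il7r carry survival and growth signals, Dntt and Rag1 diversify antigen receptor genes, and Ighm and Cd37 belong to the B cell surface. Progenitors that have begun to turn towards lymphocytes switch on Flt3, Dntt and Il7r in steps, and the mature genes of this set are silent or nearly silent in most stem cells. Nras is a GTPase that relays growth factor signals, and the G12D change holds it in its active state. Tet2 oxidises methylated cytosine, a step towards removal of the methyl group.

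The promoters of 4 members are shown as examples of members that were read in every library, Cd27 and Ikzf1, and of members that were at 0 reads in most libraries, Dntt and Il7r. Each sequence runs 5′ to 3′ from 250 bases before the annotated start to 50 bases after it, in RefSeq's GRCm38.p6, and the CpG dinucleotides, at which cytosines are methylated, are in capitals. The windows are chr6:125236978-125237277 on the minus strand for Cd27, chr11:11685675-11685974 on the plus strand for the first listed start of Ikzf1, chr19:41029025-41029324 on the plus strand for Dntt and chr15:9529827-9530126 on the minus strand for Il7r.
Cd27: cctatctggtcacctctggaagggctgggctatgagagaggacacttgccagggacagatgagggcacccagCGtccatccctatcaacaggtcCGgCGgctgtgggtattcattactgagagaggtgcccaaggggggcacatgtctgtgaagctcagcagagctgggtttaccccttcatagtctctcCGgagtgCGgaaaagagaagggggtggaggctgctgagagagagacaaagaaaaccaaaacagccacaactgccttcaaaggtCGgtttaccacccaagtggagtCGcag
Ikzf1: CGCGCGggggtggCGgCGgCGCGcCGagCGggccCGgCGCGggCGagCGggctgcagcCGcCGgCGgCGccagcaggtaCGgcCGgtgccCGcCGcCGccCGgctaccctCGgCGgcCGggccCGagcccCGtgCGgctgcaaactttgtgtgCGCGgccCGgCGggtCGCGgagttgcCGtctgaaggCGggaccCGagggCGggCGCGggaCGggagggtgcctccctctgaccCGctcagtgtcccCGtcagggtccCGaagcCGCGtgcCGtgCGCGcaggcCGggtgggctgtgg
Dntt: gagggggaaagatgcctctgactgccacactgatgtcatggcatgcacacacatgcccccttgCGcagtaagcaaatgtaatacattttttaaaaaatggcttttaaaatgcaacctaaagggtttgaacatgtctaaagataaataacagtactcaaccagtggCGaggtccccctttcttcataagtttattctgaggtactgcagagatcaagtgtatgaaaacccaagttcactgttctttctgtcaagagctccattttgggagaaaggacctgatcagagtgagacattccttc
Il7r: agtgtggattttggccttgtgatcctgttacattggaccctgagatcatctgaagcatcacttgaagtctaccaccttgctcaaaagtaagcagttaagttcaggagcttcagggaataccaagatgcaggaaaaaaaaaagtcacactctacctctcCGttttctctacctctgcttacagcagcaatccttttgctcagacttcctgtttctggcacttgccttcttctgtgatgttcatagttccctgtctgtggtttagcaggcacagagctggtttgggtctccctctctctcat

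The Ikzf1 window held 52 CpGs, and 99.4% of the 32851 promoters of the same length held fewer. The Cd27 window held 7 CpGs, which is also the median of all promoters. Dntt held 2 CpGs, with fewer in 14.1% of promoters, and Il7r held 1, with fewer in 5.43%. Promoters were found for 7 of the 8 measured members. Cd37 had 8 CpGs (51.4% of promoters had fewer) and Notch1 had 23 (78.5%), while Satb1 had 5 listed starts with 3 to 45. Over both strands, 4 short motifs were searched: TGGGAA, found in 25.6% of all promoters and shared by Ikaros and RBPJ sites, the E-boxes CAGCTG (16.3%) and CAGGTG (20.2%), and the Runx core TGTGGT (16.8%). None of the 4 was in the windows of Cd27, Notch1 or Dntt, or in either window of Ikzf1. The Il7r window holds TGTGGT, the Cd37 window holds CACCTG, the reverse complement of CAGGTG, and 3 of the 5 Satb1 windows hold 1 or more of the motifs. These are matches of letters, and no binding or methylation was measured at them.

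The libraries held 19204967 to 36890911 reads in genes. Wild-type replicate 1 was the shallowest and had the most genes at 0 reads (3824), followed by Nras replicate 2 (3267), against 1000 in wild-type replicate 2. Values are given as RPKM, reads scaled to the length of the gene and to the size of the library, or as whole reads recovered from the deposited log2 values. Tet2 stood at 4.98 ± 0.615 RPKM in compound mutants, 5.71 ± 1.16 in the Nras mutants, 4.72 ± 0.579 in the Tet2 mutants and 4.95 ± 0.0301 in wild type (SD, n = 3 each). The groups overlap, so the Tet2 level does not separate carriers from the other mice, and a point change in Nras is not visible in its level. Ddx3y, on the Y chromosome, was above Xist in 2 Tet2 libraries and in 1 library of each other genotype, so both sexes were present in every genotype. These were replicate 1 of every genotype and Tet2 replicate 3, so sex is partly confounded with the replicate number and is not balanced in comparisons with Tet2 mutants. All 12 markers of an HSC list were read, with summed levels of 266 to 310 RPKM in compound mutants, 253 to 311 in the Nras mutants, 302 to 307 in the Tet2 mutants and 264 to 305 in wild type. Cd48, which the sort selects against, had reads in 3 libraries: 2 in compound replicate 3, 98 in Nras replicate 3 and 56 in Tet2 replicate 3.

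A filter of at least 1 RPKM in at least 3 of the 12 libraries split the members. Cd27, Ikzf1, Cd37 and Notch1 were read in all 12 libraries and passed it. Satb1, Ighm, Dntt and Il7r did not pass it and are described by their reads. Satb1 was nonetheless read in all 12 libraries, with 365 to 1417 reads. Its RPKM rests on a table length of 44762 bases, against 19027 of joined exons in GENCODE M21. Cd27 was the highest at 35.6 ± 4.0 RPKM over all libraries (SD, n = 12), above 95.6% of the genes in the table. Ikzf1 stood at 21.1 ± 1.29 RPKM (90.9%), Cd37 at 8.75 ± 2.02 (74.0%) and Notch1 at 6.86 ± 1.70 (67.7%). Cd27 was above Ikzf1 and Ikzf1 above Cd37 in 12 of 12 libraries without overlap, but Cd37 was above Notch1 in only 9 of 12. Below them, in the order of means, came Dntt (1.08 RPKM), Ighm (0.979), Satb1 (0.776) and Il7r (0.134), and neighbours in this order overlap from Notch1 down. The means of Dntt and Ighm are raised by compound replicate 3, at 10.2 and 6.10 RPKM. Medians ran the other way, at 0.833 for Satb1, 0.563 for Ighm and 0 for Dntt. Dntt was above Ighm in only 3 of 12 libraries and Ighm above Satb1 in only 5 of 12. The gene lengths in the table are longer than the joined exons of GENCODE M21 for 7 of the 8 members. With the GENCODE lengths the means are 73.1 RPKM for Cd27, 47.4 for Ikzf1, 24.0 for Cd37, 8.06 for Notch1, 1.97 for Dntt, 1.82 for Satb1, 1.66 for Ighm and 0.0925 for Il7r. In the order of means only Ighm and Satb1 change places.

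None of the 4 tested members passed in any of the 8 comparisons between genotypes (limma, Benjamini-Hochberg adjusted p under 0.05 over 15478 genes). Few genes of any kind passed: 0.00646% in Nras mutants against wild type, 0.00646% in Tet2 mutants against wild type, 0.00646% in compound mutants against wild type, 0% in compound against Nras mutants, 0.00646% in compound against Tet2 mutants, 0.0129% for the interaction of the alleles, 0.0323% in Nras carriers against non-carriers and 0% in Tet2 carriers against non-carriers. These shares rest on 0 to 5 genes and moved with single libraries. Without wild-type replicate 2 the count was 18 in Nras, 20 in Tet2 and 17 in compound mutants against wild type, where all libraries gave 1 each. Unadjusted p was under 0.05 for Cd37 in compound mutants against wild type, for Cd37 and Notch1 in compound against Tet2 mutants, and for Cd37 and Notch1 in Nras carriers against non-carriers. That is 1, 2 and 2 of the 4 tested members, where 6.42%, 5.45% and 7.24% of all tested genes had such a p, and 0 of 4 in the other 5 comparisons, where the share of all tested genes was 5.61% in Nras mutants against wild type, 3.35% in Tet2 mutants against wild type, 4.04% in compound against Nras mutants, 3.38% for the interaction and 3.81% in Tet2 carriers against non-carriers. The voom test on the recovered reads also called 0 members.

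**Figure D1:**
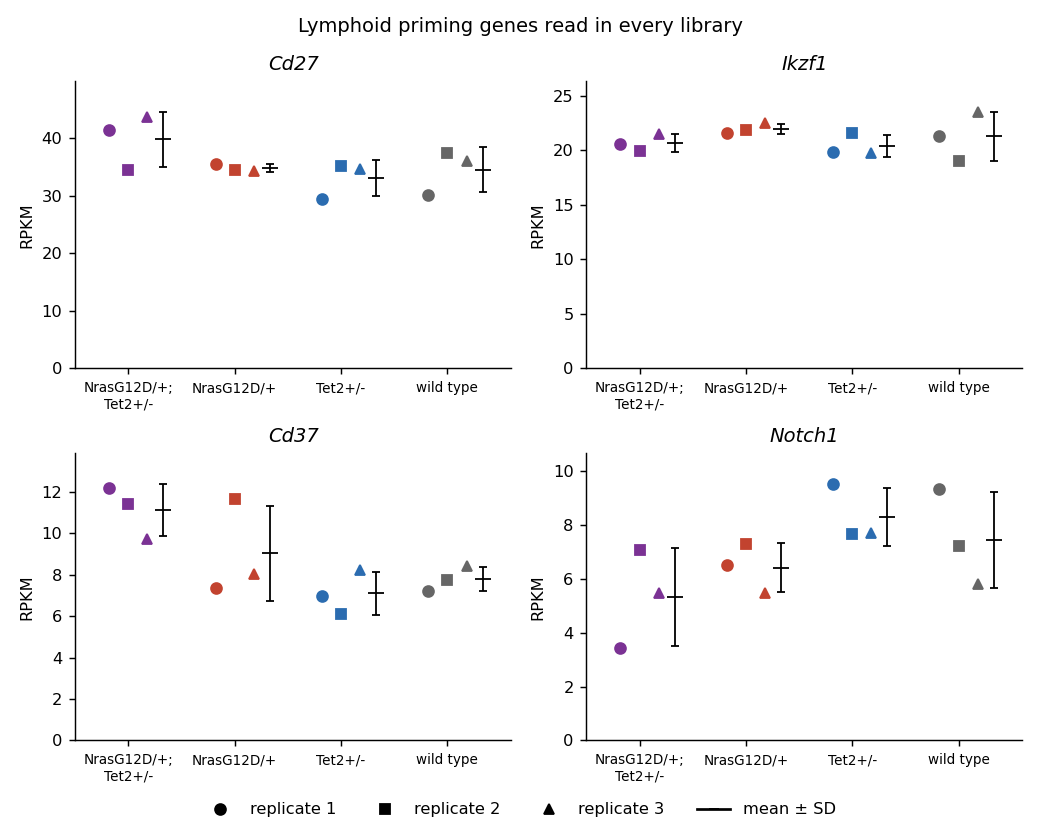
RPKM of Cd27, Ikzf1, Cd37 and Notch1 (vertical axes) in each library by genotype (horizontal axis), with the symbol giving the replicate number and the bar the mean ± SD of 3 libraries. Cd37 was between 9.73 and 12.2 RPKM in compound mutants, above all Tet2 and wild-type libraries, while Ikzf1 stayed between 19.0 and 23.5 RPKM in all 12.

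Cd27 is a receptor of the TNF receptor family that marks multipotent and lymphoid progenitors and lymphocytes (ENSMUSG00000030336, mm10 chr6:125232622-125237010, minus strand). Its levels were 41.5, 34.5 and 43.7 RPKM in compound mutants, 35.6, 34.5 and 34.4 in the Nras mutants, 29.5, 35.1 and 34.7 in the Tet2 mutants and 30.1, 37.6 and 36.1 in wild type. Compound replicates 1 and 3 were the highest of the 12 libraries, but compound replicate 2 lay within the range of every other genotype. The log2 difference was 0.27 ± 0.12 (SE) in compound against Tet2 mutants, with a 95% interval of -0.01 to 0.54 (limma adjusted p = 0.921), and 0.20 ± 0.12 in compound mutants against wild type, with an interval of -0.07 to 0.48 (adjusted p = 0.808). The single mutants differed less from wild type, by 0.02 (interval -0.26 to 0.29) in Nras mutants and -0.06 (-0.34 to 0.21) in Tet2 mutants. Cd27 lies inside Vamp1, which is on the opposite strand, and the strand setting of the counting is not given in the sources used here, so reads of the pair may be mixed. In bulk RNA of this kind, fewer cells that express a gene and less of its RNA per cell cannot be told apart.

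Ikzf1 encodes Ikaros, a zinc finger protein needed for lymphoid development (ENSMUSG00000018654, chr11:11685003-11772926, plus strand). It had 20.6, 19.9 and 21.5 RPKM in compound mutants, 21.6, 21.8 and 22.5 in the Nras mutants, 19.8, 21.6 and 19.8 in the Tet2 mutants and 21.2, 19.0 and 23.5 in wild type. All 12 values lie close together, and both the lowest and the highest are wild-type libraries. Its spread within genotypes was 0.0904 on the log2 scale, and only 0.569% of tested genes had a smaller one, where the median of all was 0.488. The log2 difference was -0.04 in compound mutants against wild type, with a 95% interval of -0.26 to 0.18 (limma adjusted p = 0.970), 0.05 (-0.17 to 0.27) in Nras mutants and -0.06 (-0.28 to 0.17) in Tet2 mutants. Compound mutants were lower than Nras mutants without overlap, by -0.09 (-0.31 to 0.13, adjusted p = 1). Of all tested genes, 4.33% were lower without overlap in that comparison.

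Cd37 encodes a tetraspanin, one of a family of membrane proteins that organise other surface proteins, and is abundant on B cells (ENSMUSG00000030798, chr7:45233632-45239115, minus strand). Its levels were 12.2, 11.4 and 9.73 RPKM in compound mutants, 7.36, 11.7 and 8.05 in the Nras mutants, 6.97, 6.11 and 8.20 in the Tet2 mutants and 7.22, 7.72 and 8.39 in wild type. All 3 compound libraries were above all 6 Tet2 and wild-type libraries, and among Nras mutants replicate 2 alone reached the compound range. The log2 difference was 0.65 ± 0.20 (SE) in compound against Tet2 mutants, with a 95% interval of 0.22 to 1.09 (limma adjusted p = 0.758). Against wild type it was 0.51 ± 0.20 in compound mutants (0.07 to 0.95, adjusted p = 0.759). Of all tested genes, 6.22% were higher without overlap in compound than in Tet2 mutants, and 6.09% were higher without overlap in compound mutants than in wild type. Over the 6 Nras carriers and 6 non-carriers the difference was 0.42 ± 0.14 (0.11 to 0.73, adjusted p = 0.512), with overlap. Of the single mutants, Nras mutants differed from wild type by 0.19 (-0.25 to 0.62) and Tet2 mutants by -0.14 (-0.58 to 0.30). With Nras replicate 2 and wild-type replicate 1 left out, which had the most genes at 0, the Nras value was -0.06, while the compound value against wild type stayed between 0.44 and 0.60 over 23 settings. The gene ends within the Tead2 gene of the opposite strand, with an overlap of few bases.

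Notch1 is the receptor through which Notch ligands direct progenitors to the T cell fate (ENSMUSG00000026923, chr2:26457903-26516663, minus strand). It had 3.44, 7.05 and 5.47 RPKM in compound mutants, 6.51, 7.27 and 5.45 in the Nras mutants, 9.51, 7.67 and 7.69 in the Tet2 mutants and 9.34, 7.19 and 5.78 in wild type. The compound libraries were all below the Tet2 libraries, but their range overlaps those of Nras mutants and wild type. The log2 difference was -0.69 ± 0.28 (SE) in compound against Tet2 mutants, with a 95% interval of -1.31 to -0.08 (limma adjusted p = 0.878), and 6.53% of tested genes were lower without overlap there. Without compound replicate 1, the lowest library, this difference was -0.41. Over Nras carriers against non-carriers it was -0.44 ± 0.20 (-0.88 to -0.01, adjusted p = 0.678). In compound mutants against wild type it was -0.52 ± 0.28 (-1.13 to 0.10, adjusted p = 0.793), and this value was -0.23 without compound replicate 1 and -0.34 without wild-type replicate 1. The Nras mutants stood -0.20 (-0.81 to 0.42) and the Tet2 mutants 0.18 (-0.44 to 0.79) from wild type. Reads of the antisense transcripts 0610009E02Rik and Gm13568, which overlap one end of the gene, may be mixed in.

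**Figure D2:**
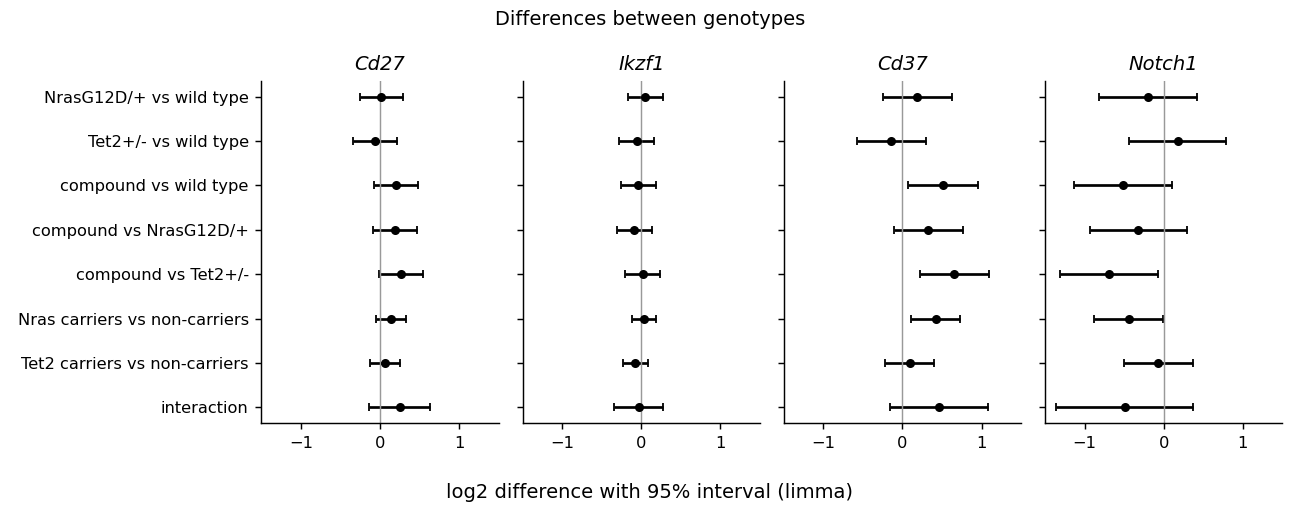
Log2 differences of the 4 tested members (horizontal axes, points, with 95% intervals from limma) in each of the 8 comparisons (rows), where compound means NrasG12D/+;Tet2+/-. Intervals of Ikzf1 all include 0 and lie within -0.35 to 0.28, whereas Cd37 is positive and Notch1 negative in compound against Tet2 mutants with intervals that leave out 0, and no difference passed adjustment over all genes.

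Whether the alleles add up on the log2 scale was asked with the interaction term. It was 0.25 (95% interval -0.14 to 0.64) for Cd27, -0.03 (-0.35 to 0.28) for Ikzf1, 0.47 (-0.15 to 1.08) for Cd37 and -0.50 (-1.37 to 0.38) for Notch1, with limma adjusted p of 0.996 for 3 of them and 1 for Ikzf1. The Notch1 term was -0.21 without compound replicate 1 and -0.33 without wild-type replicate 3, and the Cd37 term was 0.72 without Nras replicate 2 and wild-type replicate 1. Averaged over Nras genotypes, Tet2 carriers differed from non-carriers by 0.06 (-0.13 to 0.26) for Cd27, -0.07 (-0.23 to 0.08) for Ikzf1, 0.09 (-0.22 to 0.40) for Cd37 and -0.07 (-0.51 to 0.36) for Notch1. Compound against Nras mutants differed by 0.19 (-0.09 to 0.46) for Cd27, 0.32 (-0.11 to 0.76) for Cd37 and -0.32 (-0.93 to 0.30) for Notch1. Single libraries moved these values: Notch1 stood at -0.04 without compound replicate 1 and -0.55 without compound replicate 2, and Cd37 at 0.52 without Nras replicate 2 and 0.19 without Nras replicate 1.

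Among the low members, Satb1 was the only one read in every library. Satb1 organises chromatin and is needed for lymphoid specification of stem cells and for T cell development (ENSMUSG00000023927, chr17:51736187-51833290, minus strand). It had 475, 1417 and 1256 reads in compound mutants, 1379, 1029 and 994 in the Nras mutants, 1341, 832 and 1101 in the Tet2 mutants and 365, 1118 and 844 in wild type. Wild-type replicate 1 and compound replicate 1, the shallowest libraries, had the fewest. Per length and depth this is 0.800 ± 0.259 RPKM in compound mutants, 0.809 ± 0.212 in the Nras mutants, 0.843 ± 0.110 in the Tet2 mutants and 0.651 ± 0.311 in wild type (SD, n = 3 each), with overlap between all genotypes. Neither allele separated the libraries: the exact permutation test over 6 carriers and 6 non-carriers gave p = 0.626 for Nras and p = 0.431 for Tet2 (two-sided). Its reads spread over a gene length of 44762 bases in the table, against 19027 of joined exons in GENCODE, and 6 further annotated loci overlap the gene.

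Dntt encodes terminal transferase, which adds bases at the joints of antigen receptor genes and is an early mark of lymphoid progenitors (ENSMUSG00000025014, chr19:41029275-41059525, plus strand). It had 74, 0 and 1245 reads in compound mutants, 0, 0 and 293 in Nras mutants, and 0 in all 3 Tet2 libraries and all 3 wild-type libraries. The reads were thus in 3 of 6 Nras carriers and 0 of 6 non-carriers, and compound replicate 3 held most of them. The mean of 3.67 RPKM in compound mutants was 146-fold the floor of 3 reads per library in Tet2 mutants and 130-fold that floor in wild type. The mean of 0.639 RPKM in Nras mutants was 25.4-fold the floor in Tet2 mutants and 22.5-fold the floor in wild type. These folds rest on 2 libraries in compound mutants and 1 in Nras mutants. The exact permutation test of carriers against non-carriers gave p = 0.182 (two-sided), which is the smallest p that values with reads in 3 of 12 libraries allow, so this test could not pass 0.05. Of the 347 genes read in exactly 3 of the 12 libraries, 31 (8.93%) had all 3 in Nras carriers and 40 (11.5%) had all 3 in non-carriers. Sparsely read genes of this kind had a median of 45 reads where they were read.

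Il7r is the alpha chain of the interleukin-7 receptor, on which early B and T lineage cells depend (ENSMUSG00000003882, chr15:9505788-9530176, minus strand). It had 0, 0 and 63 reads in compound mutants, 90, 0 and 0 in Nras mutants, and 0 in all Tet2 and wild-type libraries. In each of the 2 genotypes with reads, 1 of 3 libraries held all of them. The mean was 0.225 RPKM in compound mutants, 6.82-fold the same floor in Tet2 mutants and 6.06-fold the floor in wild type. In Nras mutants the mean was 0.313 RPKM, 9.49-fold the floor in Tet2 mutants and 8.44-fold the floor in wild type. The exact permutation test over 6 carriers and 6 non-carriers gave p = 0.455 (two-sided), again the smallest p possible, here with reads in 2 libraries. Of 231 genes read in exactly 2 libraries, 33 (14.3%) had both in Nras carriers and 70 (30.3%) had both in non-carriers.

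Ighm is the constant region of the immunoglobulin M heavy chain, whose germline transcripts precede rearrangement of the locus (ENSMUSG00000076617, chr12:113418558-113422730, minus strand). It had 54, 88 and 567 reads in compound mutants, 0, 0 and 111 in the Nras mutants, 0, 36 and 0 in the Tet2 mutants and 115, 12 and 76 in wild type. It was read in every compound and every wild-type library, and in 1 of 3 libraries of each single mutant. In RPKM it stood at 0.800, 0.814 and 6.10 in compound mutants against 1.8, 0.151 and 0.689 in wild type, which overlap. All 3 compound libraries were above the highest Tet2 library, at 0.436 RPKM, and 5.55% of all 18546 genes were higher without overlap in that comparison. The exact permutation test gave p = 0.675 for Nras carriers against non-carriers and p = 0.779 for Tet2 carriers against non-carriers (two-sided). In a limma fit of all 18546 genes without the filter, unadjusted p of Ighm was under 0.05 in compound against Tet2 mutants, in compound against Nras mutants and for the interaction, where 5.45%, 4.07% and 3.50% of all genes had such a p. The adjusted p was 0.852 in compound against Tet2 mutants, 0.996 in compound against Nras mutants and 1.0 for the interaction. Of the 8 exact tests, 2 alleles for each of the 4 low members, only the 4 on Satb1 and Ighm could reach a p under 0.05, and none of these did before any adjustment.

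**Figure D3:**
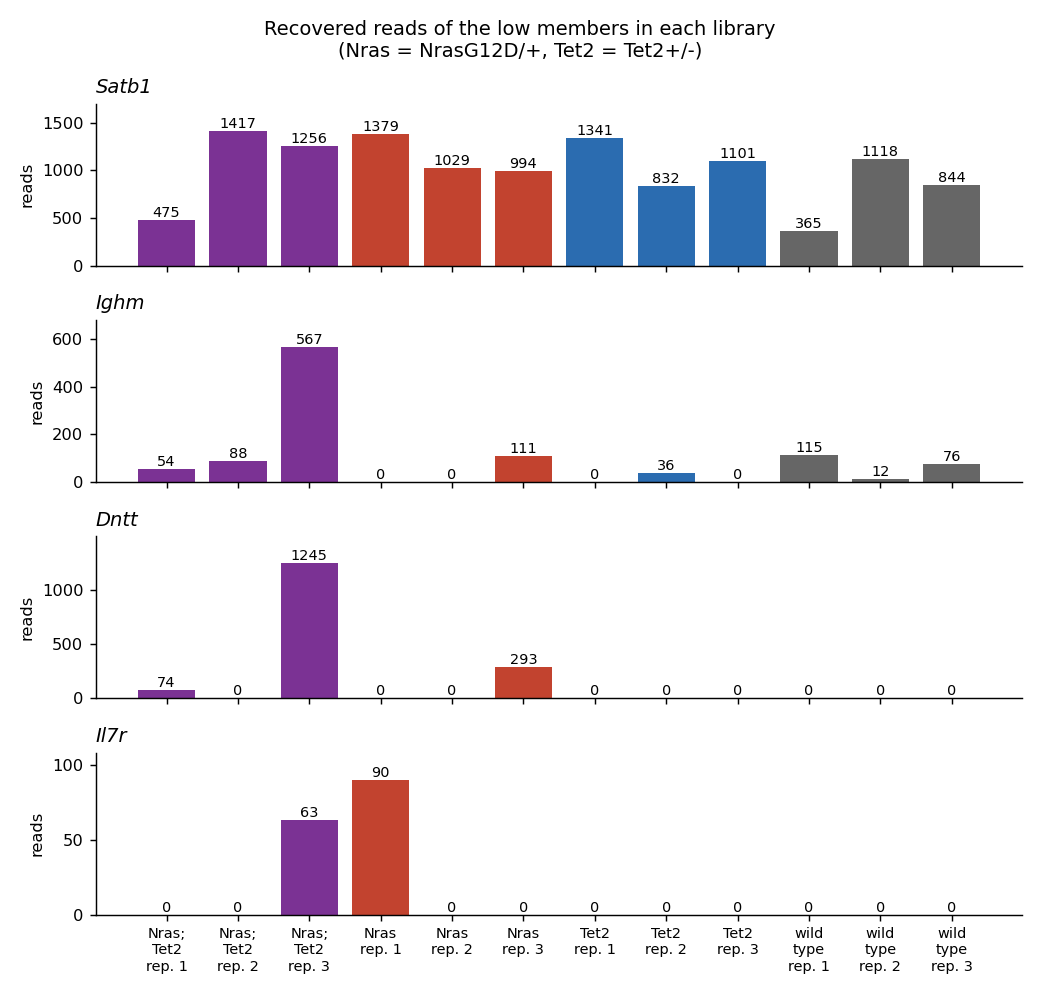
Recovered reads of Satb1, Ighm, Dntt and Il7r (vertical axes) in each of the 12 libraries (horizontal axis, 3 replicates per genotype), with the number above each bar. Satb1 was read in all libraries, whereas Dntt and Il7r were at 0 in 9 and 10 of them, and compound replicate 3 held 1245 Dntt and 567 Ighm reads.

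Compound replicate 3 was the 1 library in which Dntt, Ighm and Il7r were all read, with 1875 reads together. The next highest were Nras replicate 3 with 404 and compound replicate 1 with 128, and 3 libraries had 0. Vpreb1, of the surrogate light chain, had 61 reads in compound replicate 3, and the next highest was Tet2 replicate 3 with 30. Blnk, a B cell adaptor, had 41 reads there but more in Nras replicate 3 (63) and Tet2 replicate 2 (53). Ccr9, a homing receptor, had 73 there but more in compound replicate 2 (141) and Tet2 replicate 1 (94), so neither was highest where Dntt was. Of a B cell marker list, 6 of 12 were measured, and their summed level was 3.70 to 7.73 RPKM in compound mutants, 6.66 to 8.34 in the Nras mutants, 3.23 to 7.43 in the Tet2 mutants and 5.57 to 7.65 in wild type. Compound replicate 3, at 4.73 RPKM, was below every Nras and wild-type library. Most of this sum is Cd79b, with means of 3.48 RPKM in compound, 6.47 in Nras and 3.64 in Tet2 mutants and 4.90 in wild type. The sum thus mainly follows this gene. No measured B cell marker was at 0 in the replicate 3 library of any genotype, while 1 to 3 of the 6 were at 0 in the other 8 libraries. Of a T cell list, 4 of 12 were measured, with sums of 15.6 to 30.9 RPKM in compound mutants, 12.9 to 24.8 in the Nras mutants, 17.3 to 32.2 in the Tet2 mutants and 23.6 to 29.1 in wild type. The part that other cells had in the reads of Dntt, Ighm and Il7r was not tested. The lists of lympho-primed progenitors and of the pre-B and B cell receptor, described below, held 7 genes that failed the filter. Cd48, which the sort selects against, is among them, and genes of the other lists are not. Of the 7, 5 had at least 10 reads in compound replicate 3, 4 in Nras replicate 3 and in Tet2 replicate 3, and 0 in Nras replicate 2 and wild-type replicate 1. The share of all 3068 genes that failed the filter with at least 10 reads was 56.5% in compound replicate 3, 69.2% in Nras replicate 3 and 63.1% in Tet2 replicate 3. It was 35.7% in Nras replicate 2 and 32.1% in wild-type replicate 1.

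The genes around the members in their pathways were taken from 10 lists with 181 members, of which 150 were in the table. In every list and every comparison 0 genes rose and 0 fell (limma, adjusted p under 0.05 over all tested genes). The values below belong to genes with the smallest unadjusted p in each list, with some exceptions. Flt3, Ikzf2, Chd4, Notch2, Rbpj, Hes1, Il2rg, Jak1, Stat5b and Cd81 were chosen after the values were seen. Levels of a genotype are means over its 3 libraries, in RPKM with the SD.

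Of 15 genes of lympho-primed progenitors, 7 were tested. Flt3, the receptor that defines this stage, stood at 9.64 ± 3.48 RPKM in compound mutants, 8.62 ± 0.958 in the Nras mutants, 10.0 ± 3.08 in the Tet2 mutants and 8.20 ± 3.39 in wild type, with overlap between all genotypes. Il12a, a subunit of interleukin-12 and interleukin-35, stood at 4.33 ± 0.362 in compound and 2.32 ± 0.758 in Tet2 mutants (limma adjusted p = 0.782), without overlap. In that comparison 6.22% of tested genes were higher without overlap. Itgb7, an integrin chain of lymphocyte homing, stood at 6.12 ± 2.40 in compound mutants and 2.17 ± 1.92 in wild type (limma adjusted p = 0.781). Its wild-type mean is lowered by replicate 1, which had 0 reads, where replicates 2 and 3 stood at 3.66 and 2.85 RPKM. In Nras carriers against non-carriers 5 of the 7 were positive, with a median log2 difference of 0.14 where that of all tested genes was -0.01.

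Of 26 lymphoid transcription factors, 17 were tested. Runx3, a Runx factor of T and innate lymphoid cells, stood at 11.5 ± 3.25 RPKM in compound mutants, 12.2 ± 2.38 in the Nras mutants, 6.68 ± 1.83 in the Tet2 mutants and 7.07 ± 1.88 in wild type. All 6 Nras carriers were above all 6 non-carriers, as were 0.459% of tested genes, with a difference of 0.80 ± 0.21 (SE, log2, limma adjusted p = 0.373). Bcl11a, a factor needed for lymphoid progenitors, stood at 33.7 ± 3.28 in compound mutants, 29.6 ± 2.86 in the Nras mutants, 32.7 ± 1.06 in the Tet2 mutants and 27.5 ± 1.42 in wild type. Its difference between Tet2 carriers and non-carriers was 0.22 ± 0.07, and that of Runx1, a master regulator of blood formation, was 0.24 ± 0.09 (both adjusted p = 0.963). The list's median was -0.03 in Nras carriers against non-carriers, with 7 of 17 positive, and 0.12 in Tet2 carriers against non-carriers, with 10 of 17 positive, where all tested genes had -0.01 and 0.02.

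Ikaros works with its relatives and with the NuRD complex, which remodels nucleosomes and removes acetyl groups from histones, and 17 of 19 such genes were tested. Ikzf2 (Helios) stood at 11.5 ± 0.902 RPKM in compound mutants, 10.8 ± 0.666 in the Nras mutants, 10.7 ± 1.70 in the Tet2 mutants and 11.5 ± 1.14 in wild type. Chd4, the NuRD helicase, stood at 44.0 ± 0.420 in compound mutants, 45.1 ± 0.742 in the Nras mutants, 43.7 ± 2.05 in the Tet2 mutants and 45.3 ± 2.52 in wild type. The smallest p were those of Mta2 (interaction 0.36 ± 0.14 SE, limma adjusted p = 0.996), Rbbp4 (Tet2 carriers -0.27 ± 0.10, adjusted p = 0.963) and Mta3 (interaction -0.67 ± 0.33, adjusted p = 0.996), all NuRD subunits. In compound mutants against wild type 4 of 17 were positive, with a median of -0.04 against 0.02 of all tested genes.

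Of 37 Notch pathway genes, 25 were tested. Notch2 was the higher receptor, at 47.8 ± 2.30 RPKM in compound mutants, 46.7 ± 3.76 in the Nras mutants, 46.5 ± 3.29 in the Tet2 mutants and 44.6 ± 1.86 in wild type. Rbpj, the nuclear partner of the cleaved receptors, stood at 2.61 ± 0.504 in compound mutants, 2.29 ± 0.0682 in the Nras mutants, 2.35 ± 0.130 in the Tet2 mutants and 1.98 ± 0.353 in wild type, and the target Hes1 was under 1 RPKM on average in every genotype. Lfng, a sugar transferase that modifies Notch receptors, stood at 5.15 ± 1.28 in compound mutants, 6.20 ± 4.09 in the Nras mutants, 10.8 ± 2.18 in the Tet2 mutants and 11.1 ± 4.77 in wild type. Its difference between Nras carriers and non-carriers was -1.02 ± 0.35 (SE, log2, limma adjusted p = 0.537), with overlap, and that of Snw1, a nuclear cofactor, was 0.32 ± 0.11 (adjusted p = 0.555). Itch, a ubiquitin ligase of Notch, stood at 7.78 ± 0.582 in compound and 5.66 ± 0.561 in Tet2 mutants (limma adjusted p = 0.871). The groups did not overlap, as in 6.22% of tested genes that were higher there. The median of the 25 was -0.04 in Nras carriers against non-carriers, with 12 positive, where all tested genes had -0.01.

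Although Il7r itself was mostly at 0, 15 of 16 other genes of interleukin-7 receptor signalling were tested. Il2rg, the partner chain, stood at 4.02 ± 0.777 RPKM in compound mutants, 3.78 ± 0.427 in the Nras mutants, 3.37 ± 0.658 in the Tet2 mutants and 5.57 ± 3.69 in wild type. The kinase Jak1 stood at 46.4 ± 3.53 in compound mutants, 52.5 ± 5.77 in the Nras mutants, 48.8 ± 2.43 in the Tet2 mutants and 52.5 ± 4.04 in wild type, and the transcription factor Stat5b at 16.7 ± 0.174 in compound mutants, 17.8 ± 0.895 in the Nras mutants, 17.8 ± 0.0732 in the Tet2 mutants and 17.5 ± 1.58 in wild type. Pik3cd, a catalytic subunit of PI3 kinase in leukocytes, stood at 4.86 ± 0.728 RPKM in compound mutants, 5.02 ± 1.27 in the Nras mutants, 8.96 ± 2.17 in the Tet2 mutants and 9.27 ± 2.80 in wild type. Its difference between Nras carriers and non-carriers was -0.87 ± 0.20 (SE, log2, limma adjusted p = 0.295). Bcl2, which keeps lymphocytes and stem cells alive, stood at 18.4 ± 3.91 in compound mutants, 18.1 ± 2.66 in the Nras mutants, 12.1 ± 1.04 in the Tet2 mutants and 12.6 ± 0.936 in wild type, a difference of 0.55 ± 0.12 (adjusted p = 0.295). In both genes the carriers and non-carriers did not overlap, as in 0.388% of tested genes that were lower and 0.459% that were higher. Cish, a STAT5 target and inhibitor, had a difference of -0.67 ± 0.23 (adjusted p = 0.541). In that comparison 3 of 15 were positive, with a median of -0.06 against -0.01 of all tested genes.

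**Figure D4:**
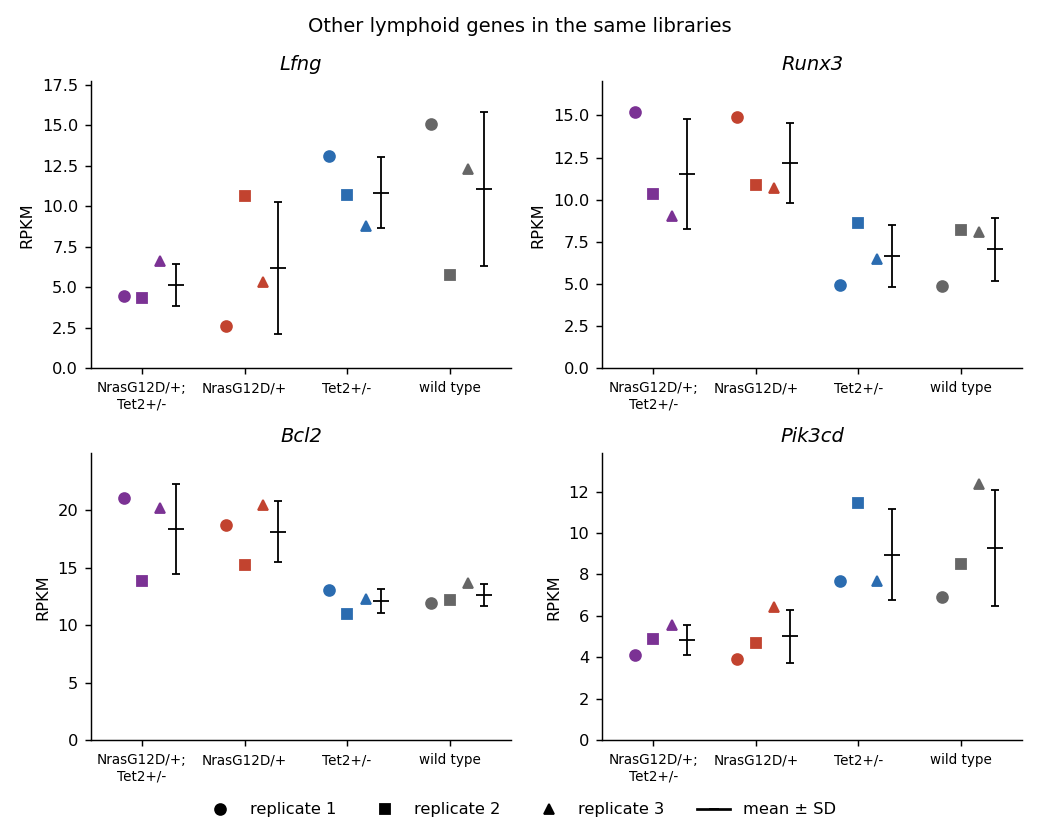
RPKM of Lfng, Runx3, Bcl2 and Pik3cd (vertical axes) in each library by genotype (horizontal axis), with the symbol giving the replicate number and the bar the mean ± SD of 3 libraries. The 6 Nras carriers lie above the 6 non-carriers for Runx3 and Bcl2 and below them for Pik3cd, while for Lfng, at 5.15 ± 1.28 RPKM in compound mutants and 11.1 ± 4.77 in wild type, carriers and non-carriers overlap.

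Of 15 genes of V(D)J recombination and end joining, the machinery that Dntt and Rag1 belong to, 11 were tested. Hmgb2, a DNA-bending cofactor of the recombinase, stood at 44.7 ± 11.9 RPKM in compound and 23.9 ± 6.13 in Tet2 mutants (limma adjusted p = 0.762). These groups did not overlap, as in 6.22% of tested genes that were higher there. Hmgb2 stood at 39.8 ± 7.90 in Nras mutants and 36.2 ± 9.62 in wild type. Atm, a kinase of the break response, stood at 24.2 ± 3.04 in compound mutants and 18 ± 4.68 in wild type (limma adjusted p = 0.760). Both single mutants were above wild type on average too, at 23.7 ± 2.41 in Nras and 21.6 ± 1.59 in Tet2 mutants. Xrcc5, which binds broken ends, had a difference of 0.28 ± 0.13 between Tet2 carriers and non-carriers (adjusted p = 0.963). In compound mutants against wild type 8 of 11 were positive, with a median of 0.15 against 0.02 of all tested genes. Against the same wild-type libraries, 8 of 11 were positive in Tet2 mutants (median 0.29) and 7 in Nras mutants (0.15). In compound mutants 4 of 11 were positive against Tet2 mutants (median -0.16) and 5 against Nras mutants (-0.03).

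Of 18 genes of the pre-B and B cell receptor, 6 were tested. Cd79b, a signalling chain of the receptor, stood at 3.48 ± 0.666 RPKM in compound mutants, 6.47 ± 1.56 in the Nras mutants, 3.64 ± 1.37 in the Tet2 mutants and 4.90 ± 1.0 in wild type. Its difference between Tet2 carriers and non-carriers was -0.68 ± 0.24 (SE, log2, limma adjusted p = 0.963). Plcg2, a phospholipase that stem cells also express, stood at 73.1 ± 6.23 in Nras mutants and 86.8 ± 9.10 in wild type (adjusted p = 0.870), and Syk, a kinase, differed by 0.24 ± 0.12 between Nras carriers and non-carriers (adjusted p = 0.721). In compound mutants against wild type 3 of 6 were positive, with a median of -0.01.

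Around Cd27, 10 of 12 genes of its ligand and signalling were tested, and the ligand Cd70 was not analysed here. Map3k14, the kinase NIK, differed by 0.26 ± 0.14 (SE, log2) between Tet2 carriers and non-carriers (limma adjusted p = 0.963). Traf3, which holds NIK down, had an interaction of 0.47 ± 0.28 (adjusted p = 0.996), and Nfkb2 stood at 6.51 ± 1.43 RPKM in Nras mutants and 9.61 ± 3.65 in wild type (adjusted p = 0.870). In Nras mutants against wild type 1 of 10 was positive, with a median of -0.28 against 0.01 of all tested genes, and in compound against Nras mutants 9 of 10 were positive, with a median of 0.22 against -0.01. These comparisons share the 3 Nras libraries. Compound mutants against wild type had 3 of 10 positive and a median of -0.08.

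Of 22 other tetraspanins, the family of Cd37, 16 were tested. Tspan13 stood at 25.9 ± 3.98 RPKM in Nras mutants and 37.6 ± 5.59 in wild type, without overlap, as in 4.48% of tested genes (limma log2 -0.54 ± 0.17 SE, adjusted p = 0.860). Tspan13 was also lower than wild type in Tet2 mutants (26.9 ± 4.40) and compound mutants (28.7 ± 3.12), and these comparisons share the wild-type libraries. Tspan9 stood at 0.392 ± 0.208 in compound and 1.33 ± 0.459 in Tet2 mutants (limma adjusted p = 0.826). Tspan33 differed by 0.60 ± 0.31 between Tet2 carriers and non-carriers (limma adjusted p = 0.963). Cd81, a widely expressed tetraspanin, stood at 23.7 ± 3.84 in compound mutants, 23.5 ± 4.66 in the Nras mutants, 29.3 ± 1.79 in the Tet2 mutants and 23.8 ± 6.39 in wild type. In compound against Tet2 mutants, where Cd37 had its largest difference, 6 of the 16 were positive, with a median of -0.08 against -0.03 of all tested genes.

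The tested members did not share 1 pattern over the libraries. Over the 12 libraries, Pearson's r of log2 values was -0.79 for Cd27 and Notch1, -0.58 for Notch1 and Cd37, 0.48 for Cd27 and Cd37, and -0.27 to 0.08 for the pairs with Ikzf1. After each genotype's mean was subtracted, r was -0.66 for Cd27 and Notch1, -0.09 for Notch1 and Cd37 and -0.04 for Cd27 and Cd37. The points share library depth and composition, and the values are a description. The genes most like each member over the 12 libraries were Selt (r = 0.87) and Cdc23 (0.86) for Cd27, Gm37009 (0.89), Gm8666 (0.88) and Gm13394 (0.87) for Ikzf1, Trp53i11 (0.93), Opa1 (0.92) and Psrc1 (0.90) for Cd37, and Kctd6 (0.93), Gm37470 (0.93) and 3300002I08Rik (0.91) for Notch1. With genotype means subtracted they were Ifi30 (0.98), Rgs10 (0.98) and Gm15135 (0.97) for Cd27, Elf2 (0.91), Fam46a (0.90) and Gm16845 (0.89) for Ikzf1, Psrc1 (0.93), Bex1 (0.93) and Prss39 (0.92) for Cd37, and Elmod3 (0.95), Trappc5 (0.95) and Xrcc3 (0.95) for Notch1. Psrc1 is the 1 gene named by both measures.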

How the data were processed

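RNA was measured in 12 libraries, 3 for each of 4 genotypes taken from the labels. The authors deposited 1 table of log2 RPKM for 18546 genes. Per the submitters' processing notes CASAVA 1.8.2, TopHat2 and edgeR were used with mm10, and the role of each is not given in the sources used here. Per the labels' protocols, ribosomal and mitochondrial RNA was removed and a stranded kit was used. The deposited values, an other unit than counts, fitted whole reads (prior 0.25, tolerance 0.001 reads) in 18545 of the 18546 genes. These recovered reads gave depth, gene lengths and RPKM. The fit used limma 3.58.1 (R 4.3.3) with a variance trend on the deposited log2 values, 1 mean per genotype, 8 residual degrees of freedom, and a filter of 1 RPKM or more in 3 or more libraries (15478 tested, 3068 not). Benjamini-Hochberg adjustment covered all tested genes in each of 8 comparisons, two-sided, and comparisons with wild type share its 3 libraries. Members under the filter were compared by exact permutation over 6 carriers and 6 other libraries. A floor of 3 reads stands for 0 and covers counting error only, since reads are not independent molecules. Members and lists were chosen with earlier results of these data known. The named genes of each list were those past the threshold, then those with the smallest unadjusted p, up to 3, and for likeness the 3 genes with the highest r. Levels of Fgd5, Gata2, Flt3, Ikzf2, Chd4, Notch2, Rbpj, Hes1, Il2rg, Jak1, Stat5b, Cd81 and of the genes read beside Dntt in 1 library are outside this rule. They were chosen after the values were seen. Scripts were tested on simulated data. Coordinates are from GENCODE M21 (mm10), and promoters from RefSeq. A few genes that the naming rule picks are not reported here.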

Additional observations from a re-analysis of the deposited data

Results flagged for a closer look

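For each of the 8 measured members, libraries were taken in sets of 6 that share the state of 1 allele, and a library was marked when its gap to the nearest of the others, divided by the whole range, was above Dixon's critical value. In all 30 checks were made, chance marks about 1 in 20 of them, and 8 were marked.

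The reads of Dntt in compound replicate 3 (10.2 RPKM) stood apart from both the other Nras carriers and the other Tet2 carriers, and those in Nras replicate 3 (1.92 RPKM) from the other libraries without the Tet2 allele. Ighm in compound replicate 3 (6.10 RPKM) stood apart from the other Nras carriers and from the other Tet2 carriers. Il7r in compound replicate 3 (0.674 RPKM) stood apart from the other Tet2 carriers, and Il7r in Nras replicate 1 (0.939 RPKM) from the other libraries without the Tet2 allele. Where nearly all other libraries are at 0, any library with reads is marked by this measure. Among the members read in every library, 1 value was marked: Cd37 in Nras replicate 2, at 11.7 RPKM, stood apart from the other 5 libraries without the Tet2 allele. That library had 3267 genes at 0 reads, the second most of the 12.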

How the results depend on the processing

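Under 22 other settings and 1 added after seeing the data (at least 10 reads in at least 3 libraries, 18108 genes tested), each run for every comparison it could be fitted to, 0 members were called. Leaving out 1 library at a time also gave 0 members called throughout. The adjusted p of Cd37 in compound against Tet2 mutants ranged from 0.413 to 1 and its log2 difference from 0.55 to 0.76. Directions of Cd37 and Notch1 in compound mutants against Tet2 mutants and against wild type held in 23 of 23 settings. Values near 0 changed sign: Cd27 in Nras mutants against wild type held its sign in 19 of 23 settings (-0.08 to 0.08), and Ikzf1 in compound against Tet2 mutants in 19 of 23 (-0.02 to 0.06). With the replicate number as a block, 0 members were called. The numbers were not used as pairs, because same-numbered libraries' deviations correlated at 0.000176 to 0.136, -0.125 to 0.0885 and 0.00895 to 0.124 for numbers 1, 2 and 3, and not every such correlation was above 0.1. Still, 8 of 12 libraries matched their own number best, where 4 would by chance, which is a hint from the data and not from the design. The sex-linked genes also go with the number, apart from Tet2 replicate 3, and the part of sex in these matches was not tested. The block gave 7 genes of any kind in Nras carriers against non-carriers, against 5 without it. The count of all genes called also moved: over all settings it reached 18, 20 and 17 in Nras, Tet2 and compound mutants against wild type and 7 in Tet2 carriers against non-carriers (all without wild-type replicate 2), 12 in compound against Nras mutants (without Nras replicate 3), 8 in compound against Tet2 mutants (without Nras replicate 2 and wild-type replicate 1), 6 for the interaction and 20 in Nras carriers against non-carriers (voom), and in each comparison the lowest count was 0 or 1. Leaving out Nras replicate 3 also gave 18 in Nras mutants against wild type. Depth limits the low members: a count of 0 allows up to 3 reads per library.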
